A study of Homo sapiens with 6 samples.

Results

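The cytosolic chaperonin CCT, also called TRiC, is a barrel of 2 stacked rings, each built from 8 related subunits that occupy fixed positions. The subunits are encoded by TCP1 (alpha), CCT2 (beta), CCT3 (gamma), CCT4 (delta), CCT5 (epsilon), CCT6A (zeta), CCT7 (eta) and CCT8 (theta), and all 8 genes were taken by name as members, 8 of the 50868 Ensembl gene identifiers in the deposited tables. The barrel binds newly made polypeptides, closes over them when it hydrolyses ATP and releases them folded. Its best known clients are actin and tubulin, and proteins with WD40 repeats form another large class. Prefoldin hands unfolded chains to the barrel, and phosducin-like proteins assist it. Because each ring holds 1 copy of each subunit, the comparison asked whether the 8 transcripts moved together after depletion of SF3B4, a subunit of the SF3b splicing complex.

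The 6 RNA-seq libraries were labelled A549, a line from a human lung adenocarcinoma, grown in medium with serum. Of these, 3 came from cells transfected with an siRNA against SF3B4 and 3 from cells given a scramble siRNA, a control duplex without an intended target. The genotype field of SF3B4 siRNA replicates 2 and 3 reads SF3B5 and SF3B6 knockdown, against SF3B4 in their titles and treatment field, and the titles were followed. The column headers name a different lung cancer line, H1650. The titles call the replicates biological, and no source used here says more of how they were made, or gives the siRNA dose or the time after transfection. The p-values rest on the spread among these 6 libraries alone. In bulk RNA, fewer transcripts per cell and fewer cells of a kind cannot be told apart.

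SF3B4 was at 22.0, 17.7 and 22.3 FPKM (fragments of a gene, scaled to its length and to the depth of the library) in the SF3B4 siRNA libraries, against 88.6, 92.0 and 93.8 FPKM in the scramble siRNA libraries. The mean was 22.6% of the scramble level (limma adjusted p = 8.8e-05; exact two-sided permutation p = 0.1, the smallest that 3 against 3 libraries allow). The implied depth was 17515896 to 18547026 fragments per library, and 2 libraries of a group correlated across tested genes at 0.980 to 0.984 (Pearson), 2 of different groups at 0.955 to 0.965. Keratin genes of epithelial cells were high (KRT19 at 644 ± 39.7 FPKM in SF3B4 siRNA and 643 ± 68.2 FPKM in scramble siRNA libraries, SD, n = 3 each), while the lung lineage gene NKX2-1 averaged 0 and 0.0055 FPKM and SFTPB was listed at 0 in all 6. The 8 fixed markers of blood, endothelial and fibroblast cells summed to 2.96 to 3.31 FPKM in SF3B4 siRNA libraries and 2.18 to 2.29 FPKM in scramble siRNA libraries. Most of that sum was COL1A1 (2.27 and 1.33 FPKM in SF3B4 siRNA and scramble siRNA libraries). The epithelial adhesion gene CDH1 was at 79.3, 61.3 and 84.3 FPKM in SF3B4 siRNA libraries and at 41.0, 33.6 and 49.1 FPKM in scramble siRNA libraries. Both passed as higher, and their part in the results was not tested. PTPRC was listed at 0 in every library.

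No subunit of the ring passed the test. All 8 genes passed the filter on low values, and 0 of 8 were called in either direction at a limma adjusted p of 0.05, with the p-values adjusted over all 9685 tested genes. In the same fit 34.1% of all tested genes were called, 16.0% higher and 18.1% lower in SF3B4 siRNA libraries. At an unadjusted p under 0.05 there were 2 of the 8, CCT6A and CCT7, against 45.0% of all tested genes. Fold changes of the members lay between -0.32 and 0.04 on the log2(FPKM + 0.1) scale. Their median size was 0.08, against 0.25 for all tested genes, and 60.6% of tested genes had a smaller change than the largest one in the ring. Of the 8 fold changes 7 were below 1, as were 50.4% of those of all tested genes, and the median log2 value was -0.08, against -0.0035 over all tested genes.

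**Figure D1:**
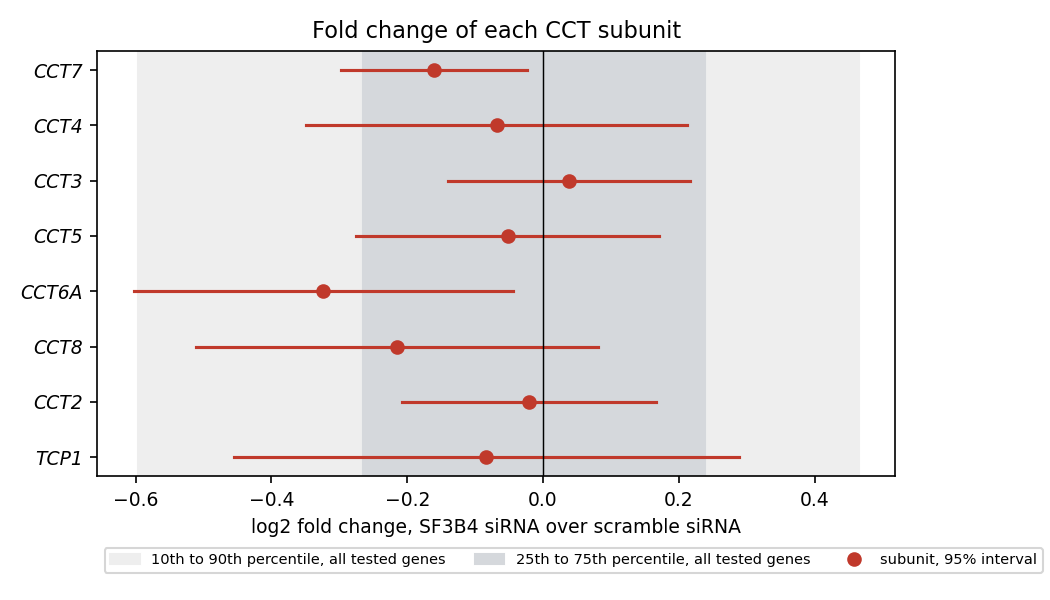
Log2 fold change (SF3B4 siRNA over scramble siRNA) of the 8 CCT subunits, in order of their mean level, with 95% intervals from limma; shaded bands span the 10th to 90th and the 25th to 75th percentile of all 9685 tested genes. Points run from -0.32 for CCT6A to 0.04 for CCT3, and the intervals of CCT6A and CCT7 do not reach 0.

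The levels of the 8 transcripts in FPKM spanned 8.07-fold to 10.3-fold within a library. FPKM scales for length and depth only, and the levels of TCP1 and CCT8 are uncertain, as given below. CCT7, the eta subunit gene, was the highest in each of the 6 libraries. It stood at 92.2, 91.4 and 100.5 FPKM in SF3B4 siRNA libraries and at 106, 105 and 106 FPKM in scramble siRNA libraries. Every SF3B4 siRNA value was thus below every scramble siRNA value, by a small margin. The log2 fold change was -0.16 (95% interval -0.30 to -0.02, limma adjusted p = 0.071). With quantile normalization the adjusted p was 0.035 (range 0.035 to 0.21 over 15 alternatives).

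CCT4, CCT3 and CCT5 formed a middle tier whose neighbours overlapped in level. CCT4, the delta subunit gene, had 54.0, 56.7 and 62.2 FPKM in SF3B4 siRNA libraries and 72.9, 56.1 and 53.8 FPKM in scramble siRNA libraries. CCT3, which encodes gamma, had 64.1, 57.5 and 55.0 FPKM in SF3B4 siRNA libraries and 59.9, 57.8 and 54.2 FPKM in scramble siRNA libraries. CCT5, the epsilon gene, had 50.7, 46.7 and 45.9 FPKM in SF3B4 siRNA libraries and 57.0, 45.6 and 46.6 FPKM in scramble siRNA libraries. In all 3 genes the groups overlapped, and for CCT4 and CCT5 scramble siRNA replicate 1 alone was above the rest of its group. The log2 fold changes were -0.07 for CCT4 (95% interval -0.35 to 0.21, limma adjusted p = 0.70), 0.04 for CCT3 (-0.14 to 0.22, adjusted p = 0.74) and -0.05 for CCT5 (-0.28 to 0.17, adjusted p = 0.71).

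CCT6A and CCT8 came next, at a mean of 18.6 and 18.0 FPKM over the 6 libraries, and did not separate from each other. CCT6A encodes zeta and was at 16.6, 14.8 and 18.1 FPKM in SF3B4 siRNA libraries and at 24.3, 18.9 and 19.0 FPKM in scramble siRNA libraries. Its groups did not overlap, although the highest SF3B4 siRNA library and the lowest scramble siRNA library were close. The log2 fold change of -0.32 was the largest in the ring (95% interval -0.60 to -0.04), and the limma adjusted p of 0.072 missed the threshold. CCT8, the theta gene, was at 17.5, 14.9 and 17.5 FPKM in SF3B4 siRNA libraries and at 22.9, 18.8 and 16.6 FPKM in scramble siRNA libraries. Here scramble siRNA replicate 3 lay within the SF3B4 siRNA range (log2 fold change -0.21, 95% interval -0.51 to 0.08, limma adjusted p = 0.23). The count of members without overlap between groups was 2 of 8, CCT6A and CCT7, against 49.5% of all tested genes.

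CCT2 and TCP1 had the lowest levels. CCT2, the beta gene, had 12.1, 11.6 and 12.5 FPKM in SF3B4 siRNA libraries and 13.2, 12.0 and 11.5 FPKM in scramble siRNA libraries. TCP1, which encodes alpha and gave the family its first name, had 10.8, 8.87 and 14.1 FPKM in SF3B4 siRNA libraries and 12.6, 11.4 and 11.1 FPKM in scramble siRNA libraries. CCT2 was among the steadiest members, while the SF3B4 siRNA libraries held both the lowest and the highest TCP1 value of all 6. The log2 fold change of CCT2 was -0.02 (95% interval -0.21 to 0.17, limma adjusted p = 0.87) and that of TCP1 was -0.08 (-0.46 to 0.29, adjusted p = 0.72), the widest interval in the ring. Its lowest value, in SF3B4 siRNA replicate 2, held 161 fragments per kilobase of transcript, and over 1 kilobase counting alone gives a coefficient of variation of 7.89% there. TCP1 shares 8.05% of its exonic bases with ACAT2 on the other strand, a gene at a mean of 31.6 FPKM, above the TCP1 level itself, and the strand setting is not given, so the level of TCP1 is uncertain.

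A short sequence that earlier work on these libraries tied to lower levels after SF3B4 siRNA occurred in the 3' UTR of 1 of the 8 members. The letters searched were GCCTTCA and CCTTCAA, which overlap in CCTTCA, on the transcript strand of coding transcripts in GENCODE 29. Of 8376 tested genes with a searchable 3' UTR, 20.4% held either one, and their log2 fold changes had a median of -0.18, while genes without a match had 0.02. The 7-mers were picked on these same data, so these medians describe them and support nothing. The 1 match in the ring was in TCP1 (GRCh38 chromosome 6, 159778666 to 159778672, minus strand). The match is shown 5′ to 3′ with its surroundings, the 7-mer in capitals.
TCP1 3' UTR: ctatagcccctCCTTCAAtattgacctaa
TCP1 did not pass the test, as given above, and no match was found in the searched 3' UTRs of the other 7.

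**Figure D2:**
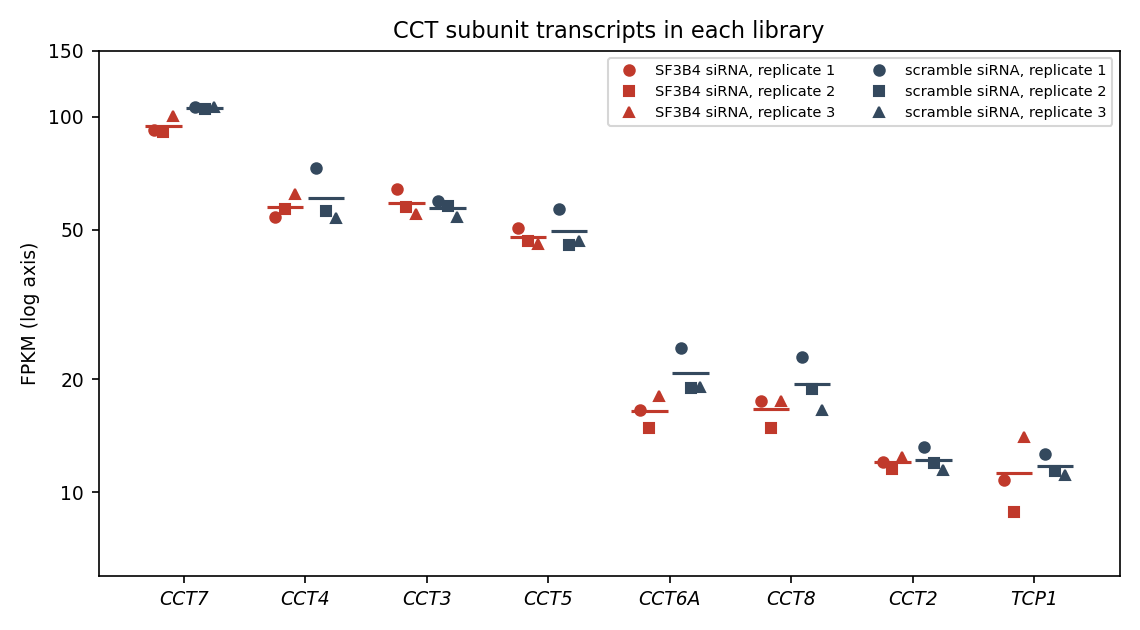
FPKM (log axis) of each CCT subunit in the 6 libraries, with SF3B4 siRNA on the left and scramble siRNA on the right of each pair, markers for replicates and a bar at the group mean. CCT7 was highest in every library, at 91.4 to 106 FPKM, and TCP1 lowest in all but SF3B4 siRNA replicate 3, where CCT2 was lowest.

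On GRCh38 (GENCODE 29) the 8 genes lie on 7 chromosomes, TCP1 on 6, CCT2 on 12, CCT3 on 1, CCT4 and CCT7 on 2, CCT5 on 5, CCT6A on 7 and CCT8 on 21. CCT4 (61868089 to 61888804) and CCT7 (73233420 to 73253021), on 1 chromosome, are not neighbours. The levels came in steps. CCT7 alone supplied 30.0% of the summed FPKM of the 8 genes in SF3B4 siRNA libraries and 31.3% in scramble siRNA libraries. TCP1 supplied 3.56% and 3.47% in the same groups. Ranges over the 6 libraries did not overlap between CCT7 and CCT4, between CCT5 and CCT6A, or between CCT8 and CCT2. They overlapped between CCT4, CCT3 and CCT5, between CCT6A and CCT8, and between CCT2 and TCP1. The summed FPKM of the ring was 318, 302 and 326 in SF3B4 siRNA libraries and 369, 326 and 319 in scramble siRNA libraries, so the groups overlapped. Scramble siRNA replicate 1 was the only library above 326 FPKM.

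All 8 transcripts shared the direction of a difference between scramble siRNA libraries. Replicate 1 was the highest of the 3 scramble siRNA libraries for 8 of 8 subunits, against 43.0% of all tested genes. There the members stood on average 0.16 above their scramble siRNA mean (log2 scale, SD 0.10 over the 8), with a spread of 0.01 for CCT7 to 0.27 for CCT4, while the median of all tested genes stood 0.02 above. In the SF3B4 siRNA libraries the members deviated from the scramble siRNA mean by -0.09, -0.21 and -0.03 on average. The scramble siRNA libraries set that mean themselves, so their spread around it is not compared with that of the SF3B4 siRNA libraries. SF3B4 siRNA replicate 2 was the lowest of its group for 5 of 8 subunits, against 38.6% of all tested genes. It was the highest for 0 of 8, against 31.5%. The deviations in SF3B4 siRNA replicate 2 ran from -0.47 for CCT6A to 0.01 for CCT3. In SF3B4 siRNA replicate 3 they ran from -0.19 for CCT6A to 0.26 for TCP1, a range on both sides of 0. Without scramble siRNA replicate 1, the log2 fold changes of CCT2, CCT4 and CCT5 were 0.03, 0.07 and 0.05, above 0 in place of below it, that of CCT8 was -0.09, and that of CCT6A was -0.21 (limma adjusted p = 0.15, range 0.064 to 0.19 over 15 alternatives).

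**Figure D3:**
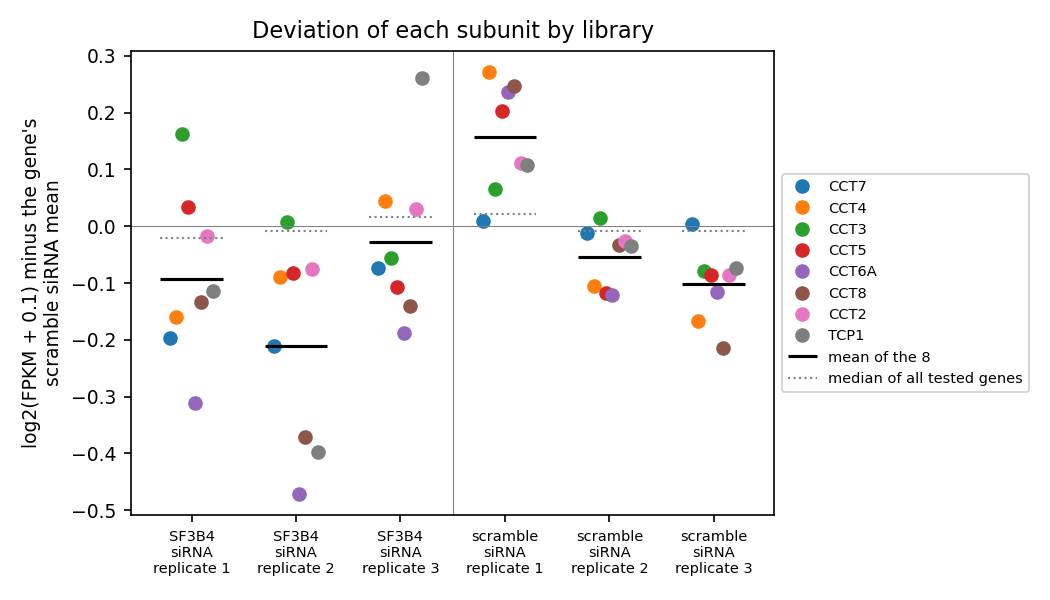
Deviation of each subunit from its own scramble siRNA mean, as a difference of log2(FPKM + 0.1), in the 6 libraries, with the mean of the 8 (black bar) and the median of all tested genes (dotted). All 8 points of scramble siRNA replicate 1 lie above 0, with a mean of 0.16, and the points of SF3B4 siRNA replicate 3 lie on both sides of 0.

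Ratios within a library, in which any scaling of the whole library cancels, asked whether single subunits left the ring. CCT6A was lower relative to the mean of the other 7 in SF3B4 siRNA libraries, with log2 ratios of -0.96, -1.01 and -0.89, against -0.62, -0.79 and -0.72 in scramble siRNA libraries. The groups did not overlap, and the difference was -0.24 ± 0.06 (SE, n = 3 each). CCT2 was higher relative to the rest, with -1.48, -1.41 and -1.50 in SF3B4 siRNA libraries and -1.62, -1.54 and -1.55 in scramble siRNA libraries, a difference of 0.10 ± 0.04. The log2 fold change of CCT2 itself was -0.02, and the rest it was measured against includes CCT6A, CCT7 and CCT8. Its ratio is thus not separate from theirs. The other 6 subunits overlapped between groups, with differences from -0.12 for CCT8 to 0.17 for CCT3. A count of 2 of 8 without overlap compares with 45.3% of all tested genes measured against the ring in the same way. Of the 28 pairs of subunits, 4 reached the smallest p that the exact two-sided permutation test allows, 0.1, and 3 of these held CCT6A, with CCT2, CCT4 or CCT5 as the partner. Adjusted over the 28 pairs the exact permutation p was 0.56 at the lowest. The widest pair was CCT3 over CCT6A, whose log2 ratio was 1.94, 1.95 and 1.60 in SF3B4 siRNA libraries and at most 1.60 in scramble siRNA libraries, a difference of 0.36 ± 0.15 with overlapping groups (exact two-sided permutation p = 0.2).

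Near copies of the members took few fragments. The tables list 14 pseudogenes named after members, of which 0 reached a mean of 1 FPKM. CCT8P1 was closest, at 0.959 FPKM in SF3B4 siRNA and 0.982 FPKM in scramble siRNA libraries, 5.38% of the CCT8 mean, and the other 13 were at or below 0.235 FPKM. Reads may have been split between CCT8 and this copy, so the level of CCT8 is uncertain. CCT6B, a zeta paralogue known from testis, had 0.146, 0.0849 and 0.157 FPKM in SF3B4 siRNA libraries and 0.0655, 0.0577 and 0.0188 FPKM in scramble siRNA libraries. It was below the filter and was not tested. The paralogue CCT8L2 was listed at 0 in all 6 libraries.

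Among the genes that work with the ring, 1 prefoldin gene and 1 cofactor gene passed the test. Prefoldin, the 6-subunit complex that delivers chains to CCT, had 1 of 6 members higher and 0 lower, beside 16.0% and 18.1% of all tested genes, with a median log2 fold change of 0.04. PFDN5 rose to 30.9 ± 1.20 FPKM in SF3B4 siRNA libraries, against 25.7 ± 2.60 FPKM in scramble siRNA libraries (SD, n = 3 each, limma adjusted p = 0.044). That call was lost in 8 of 15 alternatives, among them those without any 1 of the SF3B4 siRNA libraries and without scramble siRNA replicate 1 or 2 (adjusted p up to 0.13). PFDN6 was at 11.1 and 9.72 FPKM in SF3B4 siRNA and scramble siRNA libraries (limma adjusted p = 0.10), and 24.5% of its exonic bases lie opposite RGL2. Means in SF3B4 siRNA and scramble siRNA libraries were 5.67 and 6.06 FPKM for PFDN1, 84.1 and 84.2 for PFDN2, 3.25 and 3.52 for VBP1 and 6.30 and 5.92 for PFDN4, and these 4 did not pass. Among cofactors, PDCL, a phosducin-like protein that helps CCT assemble G protein beta subunits, was at 5.12, 5.93 and 5.51 FPKM in SF3B4 siRNA libraries and at 4.32, 3.48 and 3.42 FPKM in scramble siRNA libraries. It rose by 0.55 ± 0.12 on the log2 scale (SE, limma adjusted p = 0.0098), and it passed in each of the 14 alternatives in which it was tested. PDCL3 (5.46 and 4.92 FPKM in SF3B4 siRNA and scramble siRNA libraries) and TXNDC9 (2.42 and 2.52 FPKM in SF3B4 siRNA and scramble siRNA libraries) did not pass, and PDCL2 was listed at 0. Of the chaperonin-like genes of Bardet-Biedl syndrome, MKKS (2.18 and 2.27 FPKM in SF3B4 siRNA and scramble siRNA libraries) did not pass, and BBS10 and BBS12 were below the filter.

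Many transcripts of client proteins fell. Over the lists of tubulins, actins with actin-related proteins, and WD40 and other clients, 16 of 34 tested genes fell and 2 rose, beside 18.1% and 16.0% of all tested genes. The lists were chosen with earlier results of these data known, so these counts only describe the listed genes. Among the 16 is GNB5, which passed the filter through the scramble siRNA group alone and could only be called as a fall. Whether clients and ring differ was not tested. Of 11 tested tubulins 5 fell and 0 rose, with a median of -0.12. TUBA4A, whose change was the largest in size, was at 60.3, 67.7 and 68.4 FPKM in SF3B4 siRNA libraries and at 29.4, 49.9 and 51.8 FPKM in scramble siRNA libraries, without overlap (limma adjusted p = 0.064), and passed as higher without scramble siRNA replicate 1 (range of adjusted p 0.016 to 0.17 over 15 alternatives). TUBA1A (43.8 ± 2.54 and 37.6 ± 2.70 FPKM in SF3B4 siRNA and scramble siRNA libraries) did not overlap either and did not pass. Both were named after their values were seen. TUBB4B was at 230, 216 and 227 FPKM in SF3B4 siRNA libraries and at 325, 350 and 351 FPKM in scramble siRNA libraries, a log2 fold change of -0.61 ± 0.06 (SE). Means in SF3B4 siRNA and scramble siRNA libraries were 159 ± 9.49 and 237 ± 4.63 FPKM for TUBA1C, 421 ± 43.7 and 547 ± 12.5 for TUBA1B, and 912 ± 39.4 and 1164 ± 21.4 for TUBB, which fell as well. The other fall was TUBG1, a gamma-tubulin gene named after its values were seen. The limma adjusted p of the 5 was 0.009 or less, and they passed in 15 of 15 alternatives. Tubulin genes are close in sequence, so reads may have been split between them and single values are uncertain.

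**Figure D4:**
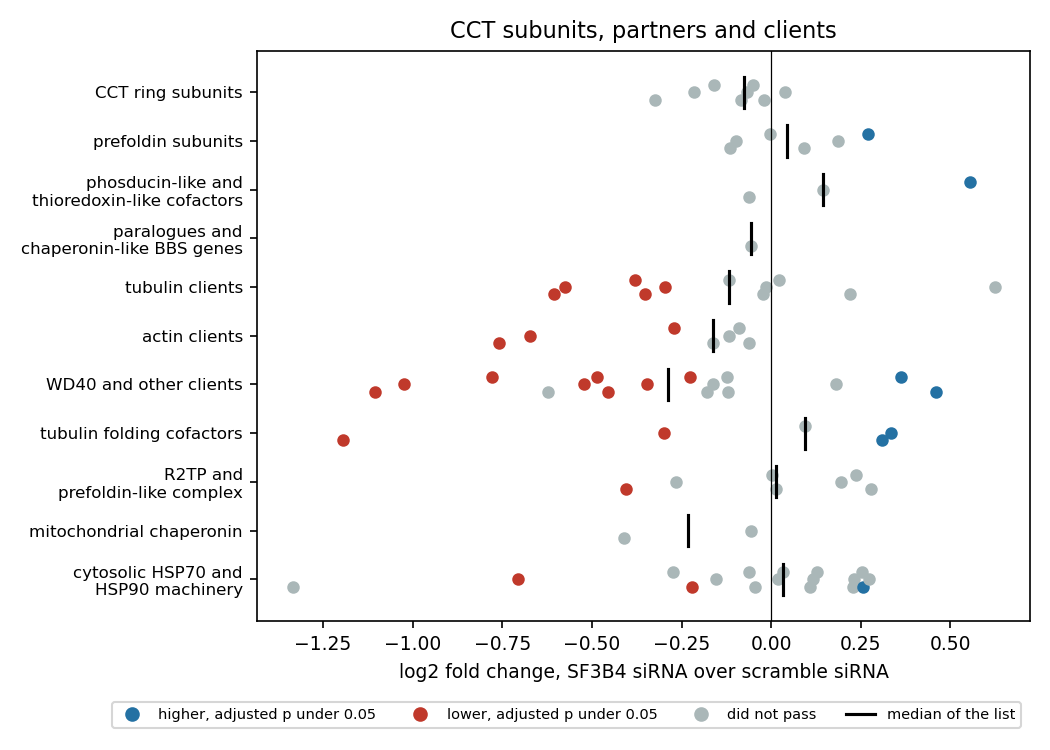
Log2 fold change (SF3B4 siRNA over scramble siRNA) of tested genes in the ring and in 10 lists of partners, clients and other chaperones, 1 point per gene, coloured by the limma call, with a bar at each list's median. All 8 points of the ring are grey (did not pass), whereas 5 of 11 tubulins, 3 of 7 actins and actin-related genes and 8 of 16 WD40 and other clients are lower. Of all tested genes 18.1% were lower.

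Of 7 tested actins and actin-related genes 3 fell and 0 rose, beside 18.1% and 16.0% of all tested genes. Their median log2 fold change was -0.16, against -0.0035 over all tested genes. ACTG1, cytoplasmic gamma-actin, was at 72.0, 74.0 and 78.4 FPKM in SF3B4 siRNA libraries and at 114, 120 and 123 FPKM in scramble siRNA libraries (log2 fold change -0.67 ± 0.06, SE, limma adjusted p = 3.4e-04). ACTB was at 601 ± 41.7 and 725 ± 21.9 FPKM, and the chromatin remodelling subunit gene ACTL6A at 5.46 ± 0.438 and 9.35 ± 1.24 FPKM, in SF3B4 siRNA and scramble siRNA libraries. All 3 passed in 15 of 15 alternatives. WD40 and other clients fell in 8 of 16 cases and rose in 2, beside the same shares of all tested genes (median -0.29). The rises were DCAF7 and STAT3, named after their values were seen. Without SF3B4 siRNA replicate 1 or 3, or scramble siRNA replicate 2 or 3, STAT3 lost its call and 1 rise was left. The G protein beta subunit gene GNB5 was at 0.644 ± 0.0536 FPKM in SF3B4 siRNA libraries and 1.50 ± 0.112 FPKM in scramble siRNA libraries. It passed the filter of 1 FPKM through the scramble siRNA group alone, so that only a fall could be called, and it was tested in 11 of 15 alternatives. WRAP53, needed for telomerase trafficking, was at 2.52 ± 0.285 and 5.22 ± 0.615 FPKM in the same groups, VHL at 1.65 ± 0.132 and 2.95 ± 0.673, and MLST8, a subunit of mTOR complexes, at 3.21 ± 0.0641 and 4.67 ± 0.588. Limma adjusted p of these 4 was at most 0.010. Without scramble siRNA replicate 2 or 3 the list had 5 falls, as GNB5 was not tested and STRN4 and PLK1 lost their calls. STRN4 and PLK1, named after their values were seen, each lost the call in 9 of 15 alternatives. With a mean FPKM of at least 5 the list had 4 falls, because GNB5, WRAP53, VHL and MLST8 were not tested there.

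Tubulin folding cofactors act after CCT to join alpha- and beta-tubulin. Of 7 listed, 6 were found by symbol and 5 were tested, so the set is incomplete. Among these 5, 2 fell and 2 rose, beside 18.1% and 16.0% of all tested genes. TBCD fell to 3.16, 2.75 and 3.28 FPKM in SF3B4 siRNA libraries, against 6.79, 7.08 and 7.50 FPKM in scramble siRNA libraries (log2 fold change -1.19 ± 0.10, SE, limma adjusted p = 2.5e-04). ARL2, the small GTPase that binds TBCD, was at 19.9 ± 0.414 and 24.6 ± 1.36 FPKM in SF3B4 siRNA and scramble siRNA libraries and fell too, with 17.5% of its exonic bases shared with a readthrough gene, ARL2-SNX15. TBCA (13.1 ± 0.984 and 10.4 ± 0.608 FPKM) and TBCC (25.8 ± 0.947 and 20.8 ± 1.66 FPKM) rose, in SF3B4 siRNA and scramble siRNA libraries, and lost that call without SF3B4 siRNA replicate 1 or 3 or scramble siRNA replicate 3 (adjusted p up to 0.077 and 0.071 over the alternatives). For the R2TP and prefoldin-like complex, 8 of 9 listed genes were found by symbol and 7 were tested. Of the 7, 1 fell and 0 rose, beside 18.1% and 16.0% of all tested genes. The fall was PDRG1 (23.5 ± 1.86 and 31.2 ± 1.93 FPKM in SF3B4 siRNA and scramble siRNA libraries).

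The mitochondrial chaperonin genes HSPD1 (11.7 ± 1.82 and 12.2 ± 1.70 FPKM) and HSPE1 (20.9 ± 2.06 and 28.1 ± 5.04 FPKM) did not pass, in SF3B4 siRNA and scramble siRNA libraries, with limma adjusted p of 0.78 and 0.051. HSPE1 passed as lower in 4 of 15 alternatives (range of limma adjusted p 0.023 to 0.14). Among them were those without SF3B4 siRNA replicate 1 or scramble siRNA replicate 2. Of the exonic bases of HSPE1, 14.2% lie opposite HSPD1 and 9.71% are shared with a readthrough gene, HSPE1-MOB4, so its level is uncertain. Of 17 tested genes of the cytosolic HSP70 and HSP90 machinery 1 rose and 2 fell, beside 16.0% and 18.1% of all tested genes, with a median log2 fold change of 0.03. HSPA1B was at 95.1 ± 3.32 and 79.8 ± 7.10 FPKM, HSP90AB1 at 287 ± 14.0 and 334 ± 19.4, and HSPH1 at 0.766 ± 0.140 and 1.31 ± 0.215 in SF3B4 siRNA and scramble siRNA libraries. HSPH1 passed the filter through the scramble siRNA group alone, so that only a fall could be called, and was tested in 11 of 15 alternatives. All 3 calls were lost without SF3B4 siRNA replicate 1 or 2. Those of HSPA1B and HSP90AB1 were also lost without SF3B4 siRNA replicate 3 or scramble siRNA replicate 3, that of HSPA1B without scramble siRNA replicate 2, and that of HSP90AB1 without scramble siRNA replicate 1 (adjusted p up to 0.10 for both). HSPA1B has a near-identical neighbour, HSPA1A, so its value is uncertain.

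The 5 genes whose profile over the 6 libraries lay nearest to the mean profile of the 8 subunits, among 4740 others with a mean of at least 5 FPKM, were VAPA, FGD5-AS1, FAM32A, RPL6P27 and H2AZ2. Likeness was the Euclidean distance between centred log2(FPKM + 0.1) values, which was 0.074 for VAPA and 0.086 for H2AZ2, against a median of 0.509. VAPA had 6.34, 6.16 and 6.64 FPKM in SF3B4 siRNA libraries and 7.93, 6.73 and 6.54 FPKM in scramble siRNA libraries. It was picked for its likeness to the ring, so its highest value in scramble siRNA replicate 1 is no separate observation. The members themselves lay at 0.136 (CCT2) to 0.349 (TCP1) from their own mean profile. Each member helped to set that profile, so these distances are not compared with those of other genes.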

How the data were processed

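Each deposited file holds FPKM, 1 value a gene, per the file headers. The submitters' processing notes give GRCh38 as the build and list StringTie 1.3.0 beside HISAT2 2.0.4, with no role for each. No source used here gives the annotation or the strand setting. Symbols (49659 of 50868 identifiers) came from a gene name table, and positions, overlaps and 3' UTRs from GENCODE 29 (GRCh38), which may differ from the authors' annotation. In single-exon genes FPKM times length moved in steps, and 99.1% to 99.5% of low values lay within 0.02 of a whole fragment. The steps gave the implied depth, and figures from it cover counting error only.

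Genes at 1 FPKM or more in at least 3 of 6 libraries were tested with limma 3.58.1 in R 4.3.3 (trend, robust, two-sided) on log2(FPKM + 0.1), which understates changes of low genes, with Benjamini-Hochberg adjustment and a threshold of 0.05. The fit was tested on simulated data. Levels are means ± SD of 3 libraries. The members, lists and the rule for named genes (all 8 members, small partner lists whole, up to 4 largest calls of other lists, 5 nearest genes) were chosen with earlier results of these data known. The alternatives were other pseudocounts, filters and scalings, a plain variance model, a replicate block and leaving out each library.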

Additional observations from a re-analysis of the deposited data

How the results depend on the processing

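No subunit was called in 14 of 15 alternatives, and 1 was called lower with quantile normalization, CCT7. Leaving out 1 library gave log2 fold changes of -0.256 to 0.0736 for TCP1, -0.0636 to 0.0349 for CCT2, -0.0244 to 0.085 for CCT3, -0.152 to 0.0674 for CCT4 and -0.111 to 0.0493 for CCT5, so these 5 changed sign, and CCT3 was at -0.0357 with quantile normalization. CCT6A, CCT7 and CCT8 stayed below 0 in each alternative run. The largest size of any member was 0.39. Calls over all tested genes were 1027 higher and 940 lower at a mean FPKM of at least 5. Fewer genes were tested there, as 4740 tested genes outside the ring had such a mean. The lower counts are thus not a smaller share than the 34.1% of the main fit. Partner and client genes called higher numbered 7, but 2 without a filter and 2 to 9 with 1 library left out. With the replicate block, 1290 genes were higher and 1537 lower, and the ring had 0 calls. Among named genes the block ended the calls of PFDN5, TBCA, STRN4 and PLK1. It gave one to HSPE1 (lower) and TUBA4A (higher). Deviations of same-numbered libraries correlated at -0.08, 0.02 and -0.12, so the numbers were not taken as pairing the samples. Leaving out 1 library left the summed level of the ring at 90.8% to 97.9% of scramble siRNA, chosen after seeing the data like the settings for the widest pair. At this depth each value of a member held at least 161 fragments per kilobase.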

Other observations

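The 3 subunits with the lowest fold changes, CCT6A (-0.32), CCT8 (-0.21) and CCT7 (-0.16), stand side by side in the assembled ring as known from structures of the complex (eta, theta, zeta). This was noticed after the values were seen, none of the 3 passed the test, and no test of position was made.

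ACTR1A, an actin-related gene of dynactin, was uneven within each group, with 36.3, 18.1 and 37.1 FPKM in SF3B4 siRNA libraries and 19.5, 37.8 and 37.7 FPKM in scramble siRNA libraries. HSPA1A was at 2.22, 52.4 and 32.8 FPKM in SF3B4 siRNA libraries and at 65.0, 32.3 and 30.4 FPKM in scramble siRNA libraries, while its neighbour HSPA1B stayed between 74.7 and 97.4 FPKM over all 6. Both genes were singled out after their values were seen, and reads shared between near copies were not tested as a cause.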
